A study of Homo sapiens with 6 samples.

Results

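The genes of the tumour necrosis factor (TNF) ligand superfamily and of its receptor superfamily were compared between PANC1OR and PANC1 cells. The members were the rows of the deposited count table whose symbol is TNFSF or TNFRSF followed by digits and an optional letter, together with TNF, LTA, LTB, LTBR, FAS, FASLG, CD40, CD40LG, CD27, CD70 and NGFR. This gave 43 genes, 17 ligands and 26 receptors, of 58735 rows in all. PANC1 is an established human cell line of pancreatic ductal carcinoma. Its subline PANC1OR was obtained by passaging the cells in rising amounts of oxaliplatin, a platinum compound that crosslinks DNA. RNA came from 3 cultures of PANC1OR and from 3 untreated cultures of PANC1, both kept in DMEM with serum. Per the design text PANC1OR kept its phenotype with no drug in the medium and after thawing, and the sources used here do not give the medium at RNA extraction. There was 1 resistant and 1 parental line, and p-values rest on the spread between cultures of these, not between independently selected lines.

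Ligands of this family are mostly trimeric proteins on the cell surface, some of which are also shed, and each engages 1 or a few receptors. Receptors with a death domain in their tail, such as FAS and the receptors of TRAIL, can start caspase-dependent death, and others recruit TRAF adaptors and activate NF-kappaB and MAP kinases. Decoy receptors bind a ligand without passing the signal on. Many ligands and co-stimulatory receptors are best known from lymphocytes and antigen-presenting cells, while death receptors, the TNF receptor TNFRSF1A and the TWEAK receptor TNFRSF12A are widespread in epithelial tumours.

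Libraries held 12623721 to 26394388 reads in PANC1OR and 10199268 to 15875431 in PANC1. PANC1OR replicate 3 stood apart: the SD over genes of log2 differences was 0.933 and 0.961 against replicates 1 and 2, which differed by 0.282. Its genes with over 60% GC in the longest transcript deviated from the mean of the other libraries of the line by a median of 1.32 in log2. Genes with under 40% GC deviated by -0.952 there. PANC1 replicate 2 deviated the same way by 0.338 and -0.246. The 5 epithelial markers summed to 546 to 1211 CPM (read counts scaled to a common TMM-adjusted library size) in PANC1OR and 832 to 1717 CPM in PANC1, and all of them reached 1 CPM. Among them, the keratin gene KRT19 was at 15.7 to 36.9 CPM in PANC1OR and 243 to 465 CPM in PANC1. Of the lymphocyte genes, 4 of 5 T cell markers and 2 of 4 B cell markers had 0 reads in all libraries. The remaining T cell marker, CD8A, was at 0.598 to 1.07 CPM in PANC1OR and 1.31 to 1.46 CPM in PANC1. PTPRC, which encodes the leukocyte antigen CD45, was at 0.0826 to 0.4996 CPM in PANC1OR and 0 to 0.0623 CPM in PANC1. Of the other general leukocyte markers, CORO1A was at 1.37 to 6.11 CPM in PANC1OR and 1.37 to 2.61 CPM in PANC1. LCP1 was at 0 CPM in PANC1OR and 0.0623 to 0.1835 CPM in PANC1. Fibroblast markers summed to 110 to 292 CPM in PANC1OR and 80.95 to 95.75 CPM in PANC1, nearly all of it COL1A1, and myeloid ones to 2.56 to 5.53 CPM in PANC1OR and 1.35 to 1.74 CPM in PANC1. The part of PANC1OR replicate 3 and of these markers in the results was not tested beyond the fits without that library and with GC offsets. In these bulk libraries, fewer cells with a transcript and less of it per cell cannot be told apart.

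Of the 43 members, 20 had enough reads to be tested, 4 ligands and 16 receptors. By edgeR's quasi-likelihood test, with p-values adjusted over all 18751 tested genes, 8 members were higher and 2 were lower in PANC1OR at an adjusted p under 0.05. Over all tested genes 10.3% were higher and 7.5% lower, 17.8% together. The 8 were the ligand genes CD70 and TNFSF9 and the receptor genes TNFRSF11A, TNFRSF11B, TNFRSF19, CD40, TNFRSF1B and TNFRSF14, and the 2 were FAS and TNFRSF10D. The median log2 fold change of the tested members was 0.76, beside 0.04 for all tested genes, and the median of the absolute values was 1.01, beside 0.43. These counts describe the tested members only, and TNFSF9, TNFRSF11B and TNFRSF19 averaged under 1 CPM in PANC1, so that they passed the filter on low counts through their PANC1OR libraries. NGFR, called lower in some other fits, averaged under 1 CPM in PANC1OR and passed through its PANC1 libraries. The libraries of the lines did not overlap in CPM for 13 of the 20, where 36.5% of all tested genes had this property. With the cutoffs of the design text, an absolute log2 fold change over 2 and an adjusted p under 0.01, CD70, TNFSF9, TNFRSF11B and TNFRSF19 passed, and 6.25% of all tested genes did so. Without PANC1OR replicate 3, 9 members were higher and 4 lower of 21 tested, beside 44.1% of all genes called, and the median of the tested members was 0.28. With offsets for the GC trend by library 11 were higher and 4 lower of 20, beside 38.8%, and the calls over all genes then split into 3415 higher and 3858 lower, against 1939 and 1406 without offsets. Without PANC1 replicate 1, 2 or 3, higher members numbered 5, 6 and 5 and lower ones 1, 0 and 0 of 21 tested. Of all tested genes, 9.86%, 12.2% and 9.31% were called in these fits, fewer than with 6 libraries. In each fit with 0 lower members, 2 were lower at an unadjusted p under 0.05, and DESeq2 with 6 libraries called 2 lower. Without PANC1OR replicate 1 or 2, 8 were higher and 1 lower, beside 12.0% and 12.5% of all tested genes called. Without PANC1 replicate 3, 2 members passed the cutoffs of the design text, and the share of all genes past these cutoffs was not computed for that fit.

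**Figure D1:**
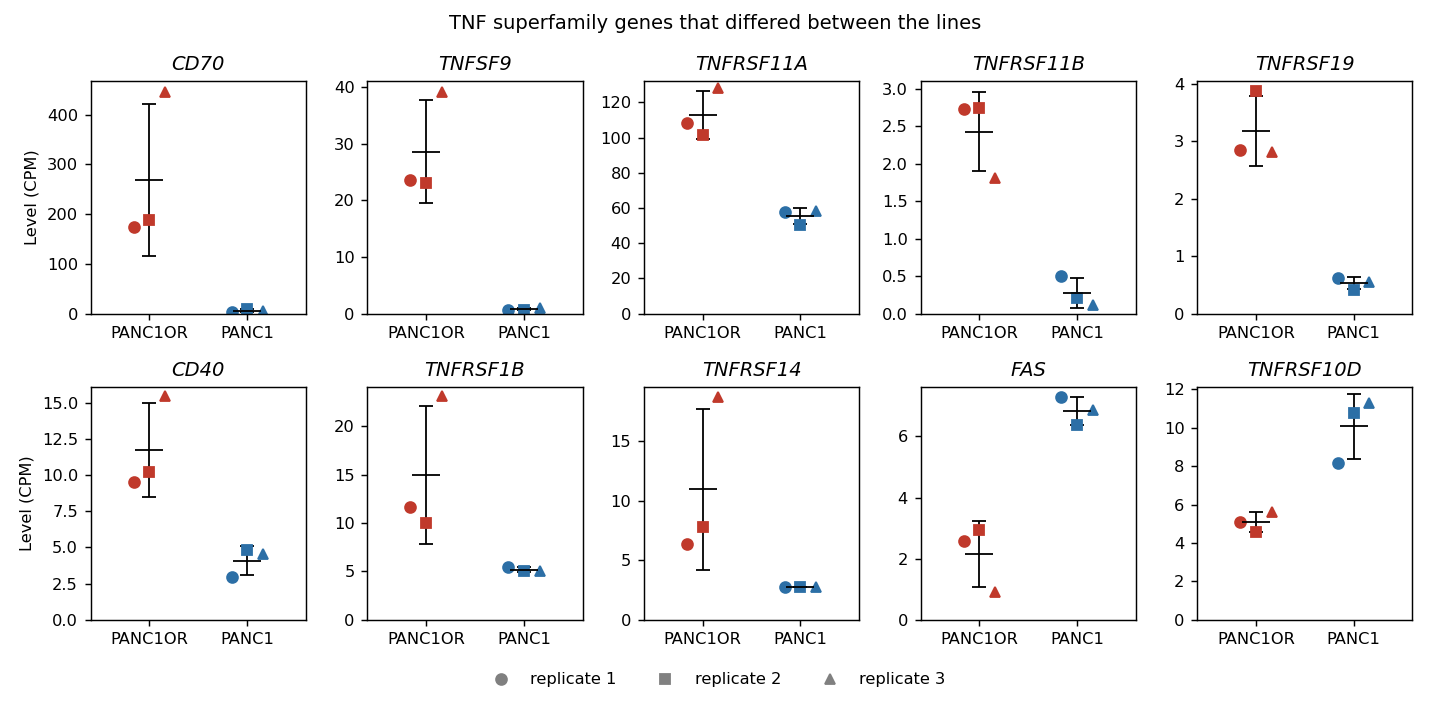
Level in CPM of the 10 members that differed between the lines at an adjusted p under 0.05, with 1 point per library, PANC1OR left of PANC1; horizontal bars are means and error bars the SD of 3 libraries. The libraries of the lines do not overlap in any panel, and PANC1OR replicate 3 is the highest of its line for CD70, TNFSF9, TNFRSF11A, CD40, TNFRSF1B, TNFRSF14 and TNFRSF10D and the lowest for TNFRSF11B, TNFRSF19 and FAS.

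RefSeq promoter windows on GRCh38.p14 were on hand for 28 of the members, 6 of them among the 10 that differed. The 250 bases before an annotated start are shown for 5 of these, 4 that rose and FAS, which fell. Reads were counted per gene, so which start was in use is not known. Capitals mark the TATA box letters TATAAA, the SP1 box core GGGCGG and the NF-kappaB consensus, each searched on both strands and present in 10.7%, 42.6% and 9.95% of all 35093 windows of this length. All lie on the plus strand, TNFSF9 at chr19:6530776-6531025, TNFRSF11A at chr18:62325060-62325309, TNFRSF1B at chr1:12166741-12166990, TNFRSF14 at chr1:2556121-2556370 and FAS at chr10:88990548-88990797.
TNFSF9: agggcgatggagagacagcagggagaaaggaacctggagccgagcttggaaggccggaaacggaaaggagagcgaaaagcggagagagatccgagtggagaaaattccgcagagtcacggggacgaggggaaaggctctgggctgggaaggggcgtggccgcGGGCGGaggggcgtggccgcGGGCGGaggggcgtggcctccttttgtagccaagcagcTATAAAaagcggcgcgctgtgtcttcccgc
TNFRSF11A: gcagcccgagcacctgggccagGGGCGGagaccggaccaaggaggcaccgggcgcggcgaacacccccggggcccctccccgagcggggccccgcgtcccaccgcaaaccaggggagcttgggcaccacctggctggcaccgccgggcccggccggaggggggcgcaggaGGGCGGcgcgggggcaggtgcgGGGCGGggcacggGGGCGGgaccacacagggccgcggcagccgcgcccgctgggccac
TNFRSF1B: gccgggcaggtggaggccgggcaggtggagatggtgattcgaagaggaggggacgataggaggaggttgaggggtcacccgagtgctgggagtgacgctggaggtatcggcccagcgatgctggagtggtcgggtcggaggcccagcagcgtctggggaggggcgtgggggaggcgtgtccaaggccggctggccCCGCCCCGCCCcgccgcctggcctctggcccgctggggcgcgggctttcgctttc
TNFRSF14: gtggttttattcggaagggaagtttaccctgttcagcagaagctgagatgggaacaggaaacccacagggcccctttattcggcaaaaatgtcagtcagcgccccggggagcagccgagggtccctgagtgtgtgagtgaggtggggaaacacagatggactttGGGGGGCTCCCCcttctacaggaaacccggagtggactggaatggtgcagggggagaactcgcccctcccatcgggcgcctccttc
FAS: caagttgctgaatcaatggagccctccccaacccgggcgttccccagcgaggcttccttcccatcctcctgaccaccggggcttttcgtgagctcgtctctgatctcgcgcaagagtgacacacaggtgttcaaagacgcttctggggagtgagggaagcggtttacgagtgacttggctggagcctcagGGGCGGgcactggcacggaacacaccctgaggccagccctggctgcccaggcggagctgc

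The window of TNFSF9 held 1 TATAAA and 2 GGGCGG, and that of TNFRSF11A held 4 GGGCGG in a sequence of 82.4% GC. TNFRSF1B held 2 GGGCGG that overlap, read on the minus strand, and FAS held 1 in the first of its 3 windows. In TNFRSF14 the NF-kappaB consensus matched at 3 overlapping positions within 1 stretch. The first of 2 windows of TNFRSF19 held none of these letters. A match is a description of the letters and not a bound site.

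The ligand gene with the highest level and, with 6 libraries, the largest fold change was CD70. It encodes the ligand of CD27, a co-stimulatory pair of lymphocytes, and lies on chromosome 19 at 6583183 to 6604103 (ENSG00000125726). CD70 stood at 173.8, 188.8 and 445.7 CPM in PANC1OR replicates 1 to 3, against 4.11, 9.30 and 4.53 CPM in PANC1 replicates 1 to 3. All PANC1OR libraries lay far above all PANC1 libraries, and the library with the GC deviation was the highest in each line. The log2 fold change was 5.52 ± 0.53 (SE, adjusted p = 0.000291), 4.97 without PANC1OR replicate 3 and 5.46 with GC offsets.

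TNFSF9 encodes the ligand of the co-stimulatory receptor 4-1BB, the product of TNFRSF9. Its levels were 23.7, 23.0 and 39.1 CPM in PANC1OR, against 0.685, 0.627 and 1.04 CPM in PANC1. The spread within a line was small beside the distance between the lines, and the log2 fold change was 5.15 ± 0.36 (adjusted p = 7.2e-05). CD70 and TNFSF9 were called in each of the 6 fits that left out 1 library. Without PANC1 replicate 3 the log2 fold change was 5.42 for TNFSF9 and 5.34 for CD70, so their order by fold change is not settled.

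Their receptors had few reads. CD27 had 12, 9 and 5 reads in PANC1OR and 0, 0 and 1 in PANC1, a ratio of summed levels of 19.9 with an exact 95% counting interval of 3.27 to 816. It was too low for the filter and was called only in the fit with no filter on low counts (adjusted p = 0.00624). Of the exon bases of CD27, 42.5% are shared with CD27-AS1 on the opposite strand, which had 176, 117 and 142 reads in PANC1OR and 14, 20 and 35 in PANC1. No strand setting of the counting was found in the labels, so reads of the pair cannot be told apart. TNFRSF9, the 4-1BB gene, had 3, 3 and 0 reads in PANC1OR and 3, 6 and 2 in PANC1.

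Levels per length, in TPM (read counts divided by the merged exon length and scaled to a common total in every library), show the weight of these ligands in the family. Summed over all 17 ligand genes, the level was 437, 460.0 and 839 TPM in PANC1OR, against 20.2, 23.7 and 18.35 TPM in PANC1. CD70 made up 87.0%, 88.2% and 90.9% of that sum in PANC1OR, against 48.0%, 66.95% and 54.8% in PANC1. The other 15 ligand genes, without CD70 and TNFSF9, summed to 8.41, 7.85 and 13.3 TPM in PANC1OR and 8.99, 6.84 and 6.14 TPM in PANC1, ranges that overlap. The 26 receptor genes summed to 347, 337 and 510 TPM in PANC1OR and 329, 289 and 311 TPM in PANC1.

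**Figure D2:**
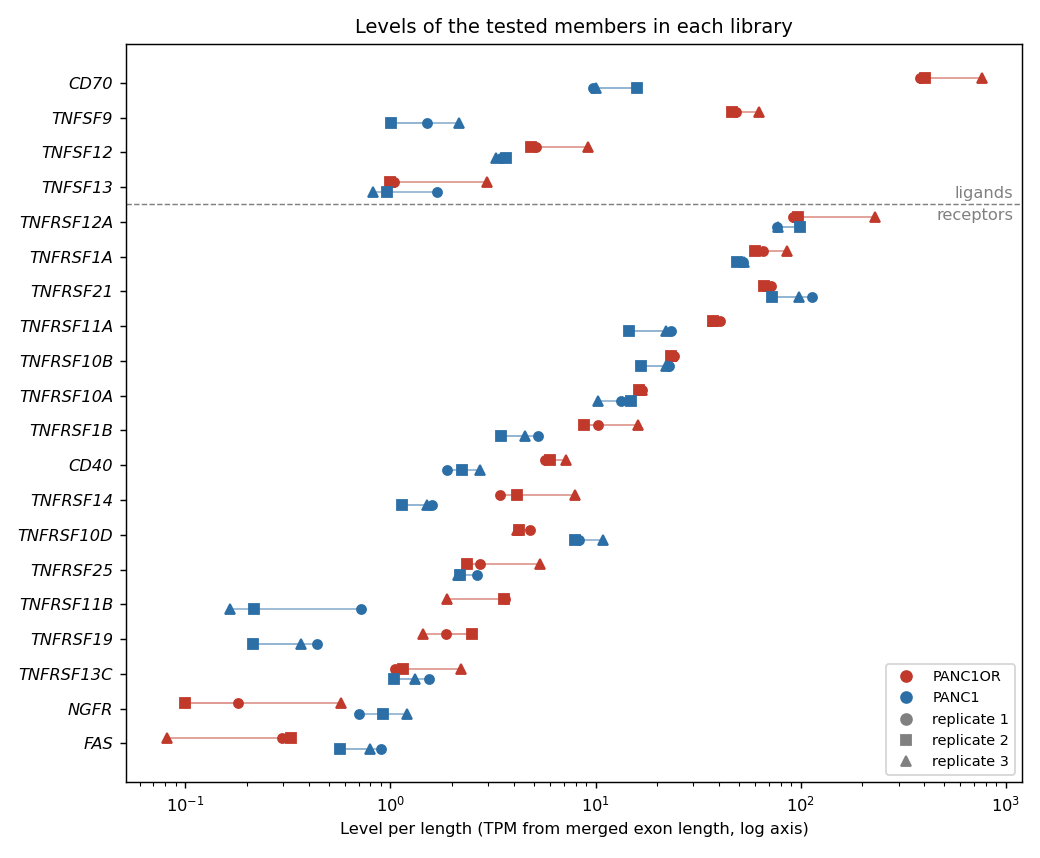
Level of the 20 tested members in TPM on a log axis, 1 point per library, PANC1OR above PANC1 in each row, ligands above the dashed line and receptors below it. In PANC1OR, CD70 is the highest member at a mean of 517 TPM, and in PANC1 the highest by merged exon length are TNFRSF21 and TNFRSF12A, an order that changes with the canonical transcript.

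CD70 and TNFSF9 are neighbours, with 47258 bases between the end of TNFSF9 and the near end of CD70, and TNFSF14, the gene of the ligand LIGHT, follows beyond CD70. TNFSF14 had 3, 1 and 0 reads in PANC1OR and 0 in each PANC1 library. In a window that reached 250 kb beyond the pair, drawn after their values were seen, 13 genes besides the pair were tested and 5 were called higher in PANC1OR and 0 lower, where 10.3% of all tested genes were called higher. The 5 were TUBB4A, a brain-type tubulin gene (log2 fold change 3.19 ± 0.45), C3, the central complement component gene (4.41 ± 0.38), GPR108 (1.64 ± 0.38), SH2D3A (1.40 ± 0.30) and RPL7P50, a pseudogene. RPL7P50 lies within the span of CD70 and had 84 reads in PANC1OR and 1 in PANC1, a ratio of 64.3 (95% counting interval 11.2 to 2568). C3 had 2, 1 and 4 reads in the PANC1 libraries, so that C3 and RPL7P50, like TNFSF9, passed the filter on low counts through PANC1OR. The other 8 tested genes of the window had log2 fold changes of -0.13 to 0.83 and were not called. The calls of GPR108 and SH2D3A were lost without PANC1 replicate 1 (adjusted p = 0.0968 and 0.0743) or replicate 3 (0.095 and 0.0783), and that of GPR108 also without PANC1 replicate 2 (0.061).

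**Figure D3:**
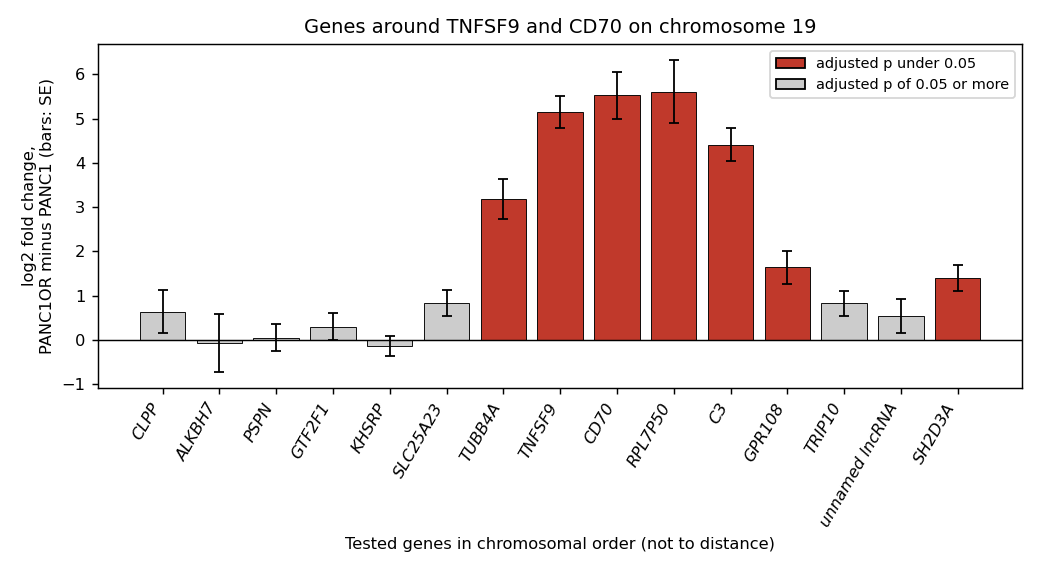
Log2 fold change (PANC1OR minus PANC1) with SE of the 15 tested genes around TNFSF9 and CD70, in chromosomal order and not to distance; red bars have an adjusted p under 0.05. The run from TUBB4A to GPR108 holds the red bars together with SH2D3A at the right, and the bar of RPL7P50 rests on 1 read in PANC1.

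Among receptors, both receptors of the osteoclast cytokine RANKL were higher in PANC1OR. TNFRSF11A, which encodes RANK, the signalling receptor, was at 108.5, 101.8 and 128 CPM in PANC1OR, against 57.8, 50.3 and 58.2 CPM in PANC1, with a log2 fold change of 1.02 ± 0.18 (adjusted p = 0.00589). TNFRSF11B, which encodes the soluble decoy osteoprotegerin, was at 2.73, 2.75 and 1.82 CPM in PANC1OR, against 0.498, 0.209 and 0.122 CPM in PANC1. No PANC1 library reached a PANC1OR library for either gene. The log2 fold change of TNFRSF11B was 3.08 ± 0.49 (adjusted p = 0.00339) and 3.89 without PANC1 replicate 1, which held 8 of the 12 reads of that line. The ligand gene TNFSF11 had 0 reads in PANC1OR and 1 in PANC1. Per length, TNFRSF11A stood at 38.4 ± 1.80 TPM in PANC1OR and 19.96 ± 4.65 TPM in PANC1, above TNFRSF11B at 3.04 ± 0.995 TPM in PANC1OR and 0.366 ± 0.304 TPM in PANC1 (SD, n = 3 each).

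TNFRSF19, also called TROY, is a receptor without a settled ligand in this family and a known target of Wnt signalling. It was at 2.84, 3.87 and 2.81 CPM in PANC1OR, against 0.623, 0.418 and 0.550 CPM in PANC1. The groups were far apart, with a log2 fold change of 2.53 ± 0.33 (adjusted p = 0.00126), and TNFRSF19, TNFRSF11A and TNFRSF11B were called in all 6 fits without 1 library.

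CD40, TNFRSF1B and TNFRSF14 encode receptors that recruit TRAF proteins and lack a death domain. CD40, the receptor of the T cell ligand CD40LG, was at 9.53, 10.2 and 15.4 CPM in PANC1OR, against 2.93, 4.805 and 4.53 CPM in PANC1 (log2 fold change 1.52 ± 0.30, adjusted p = 0.0103). TNFRSF1B, the second TNF receptor, was at 11.6, 10.05 and 23.1 CPM in PANC1OR, against 5.48, 5.01 and 5.015 CPM in PANC1 (1.52 ± 0.34, adjusted p = 0.0182). TNFRSF14, the LIGHT receptor HVEM, was at 6.35, 7.81 and 18.7 CPM in PANC1OR, against 2.74, 2.72 and 2.75 CPM in PANC1 (1.99 ± 0.43, adjusted p = 0.015). Of the exon bases of TNFRSF14, 13.3% are shared with TNFRSF14-AS1 on the opposite strand, which had 8, 3 and 6 reads in PANC1OR and 1, 0 and 3 in PANC1. In all 3 genes every PANC1OR library was above every PANC1 library, and PANC1OR replicate 3 was the highest. TNFRSF14 and TNFRSF1B have 64.0% and 59.5% GC, and without that library their log2 fold changes were 1.35 and 1.06, with adjusted p of 0.000756 and 0.00121. The calls of TNFRSF14 and TNFRSF1B were lost without PANC1 replicate 1 (adjusted p = 0.0701 and 0.0754), 2 (0.0715 and 0.0803) or 3 (0.0748 and 0.0923), and that of CD40 without PANC1 replicate 1 (0.0566) or 3 (0.0503). Their ligands within this family were scarcely detected, with 0 reads of CD40LG in any library and 4 reads of TNF in PANC1OR and 6 in PANC1. LTA had 0 reads in PANC1OR and 5 in PANC1, and TNFSF14 had 4 in PANC1OR and 0 in PANC1.

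FAS, the death receptor of FASLG, was lower in PANC1OR. It was at 2.58, 2.94 and 0.908 CPM in PANC1OR, against 7.28, 6.37 and 6.85 CPM in PANC1, with PANC1OR replicate 3 the lowest library and no overlap between the lines. The log2 fold change was -1.64 ± 0.39 (adjusted p = 0.0218), and -1.33 without PANC1OR replicate 3 (adjusted p = 0.000773). The call was lost without PANC1 replicate 1, 2 or 3 (adjusted p = 0.0813, 0.0641 and 0.0813). FASLG had 0 reads in every library.

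Of the TRAIL receptors, TNFRSF10D was lower and the death receptors did not pass the test with 6 libraries. TNFRSF10D, which encodes a decoy with a truncated death domain, was at 5.08, 4.56 and 5.615 CPM in PANC1OR, against 8.16, 10.8 and 11.3 CPM in PANC1, without overlap (log2 fold change -0.99 ± 0.24, adjusted p = 0.023). Its adjusted p was 0.0738 and 0.12 without PANC1 replicates 2 and 3, 0.0841 and 0.0931 without PANC1OR replicates 1 and 2, and 0.0787 with the replicate number as a block. TNFRSF10B, the gene of death receptor DR5, was at 35.9, 35.4 and 44.9 CPM in PANC1OR, against 31.7, 32.0 and 32.6 CPM in PANC1, without overlap (0.27 ± 0.19, adjusted p = 0.401). TNFRSF10A, the gene of DR4, was at 14.6, 14.4 and 18.7 CPM in PANC1OR, against 10.8, 16.6 and 8.87 CPM in PANC1, ranges that overlap (0.40 ± 0.28, adjusted p = 0.395). With PANC1OR replicate 3 and PANC1 replicate 2 both left out, TNFRSF10A was called higher (0.55, adjusted p = 0.00164) and TNFRSF10B was not (0.13, adjusted p = 0.187). In that fit 58.5% of all tested genes were called. The second decoy gene, TNFRSF10C, had 0 reads. These genes lie together on chromosome 8 and are related in sequence, and how reads were divided among them is not known. The ligand gene TNFSF10, which encodes TRAIL, had 27, 13 and 2 reads in PANC1OR and 4, 3 and 8 in PANC1. It was called higher without PANC1OR replicate 3 (1.35, adjusted p = 0.0307), a fit in which 44.1% of all tested genes were called. With PANC1 replicate 2 left out as well it was also called (1.29, adjusted p = 0.0254), where 58.5% of all tested genes were. Without PANC1 replicate 1, 2 or 3 it was tested and not called (adjusted p = 0.638, 0.502 and 0.424), nor with no filter on low counts (0.373).

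The 3 receptor genes with the highest levels in PANC1 per length, in TPM, were not called with 6 libraries. TNFRSF12A, the receptor of TWEAK, was at 49.6, 53.45 and 158 CPM in PANC1OR, against 38.1, 68.6 and 41.2 CPM in PANC1, with 64.2% GC and the highest value of each line in the library with the GC deviation (0.82 ± 0.47, adjusted p = 0.299). Without PANC1OR replicate 3 its log2 fold change was 0.06 (adjusted p = 0.856), while with GC offsets it was called at 0.72 (adjusted p = 0.00458). TNFRSF1A, the main TNF receptor with a death domain, was at 81.9, 76.5 and 137 CPM in PANC1OR, against 60.95, 79.2 and 65.8 CPM in PANC1 (0.52 ± 0.26, adjusted p = 0.231), and was called with GC offsets (0.45, adjusted p = 0.017). TNFRSF21, the death receptor DR6, was at 76.7, 72.4 and 95.1 CPM in PANC1OR, against 113.7, 99.96 and 104.4 CPM in PANC1, without overlap (-0.38 ± 0.18, adjusted p = 0.209). It was called lower without PANC1OR replicate 3 (-0.52, adjusted p = 0.00627) and with GC offsets (-0.44, adjusted p = 0.00973). With PANC1OR replicate 3 and PANC1 replicate 2 both left out, all 3 genes were called, as were 58.5% of all tested genes. The log2 fold changes there were 0.35 for TNFRSF12A, 0.30 for TNFRSF1A and -0.57 for TNFRSF21 (adjusted p = 0.00158, 0.00357 and 1.1e-05). Per merged exon length, TNFRSF12A was at 92.2, 97.6 and 229 TPM in PANC1OR, above every value of TNFRSF1A (65.25, 59.8 and 85.5 TPM) and of TNFRSF21 (71.4, 66.3 and 69.3 TPM) there, whose ranges overlap. In PANC1 the 3 genes stood at 84.6 ± 13.0, 51.6 ± 2.09 and 95.2 ± 21.0 TPM (SD, n = 3 each), with TNFRSF12A and TNFRSF21 overlapping. The order in PANC1 depends on the length used: with the canonical transcript the means were 106.8 TPM for TNFRSF12A, 68.4 TPM for TNFRSF1A and 65.1 TPM for TNFRSF21.

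The remaining tested members had lower levels per length than these receptors in both lines. TNFSF12, the TWEAK gene, was at 6.99, 6.74 and 15.9 CPM in PANC1OR, against 4.36, 6.37 and 4.404 CPM in PANC1 (0.97 ± 0.39, adjusted p = 0.135), without overlap, and was called with GC offsets (0.91, adjusted p = 0.00151). NGFR, the low-affinity receptor of neurotrophins, was at 0.224, 0.125 and 0.908 CPM in PANC1OR, against 0.809, 1.46 and 1.47 CPM in PANC1 (-1.71 ± 0.65, adjusted p = 0.118). The groups of NGFR overlap through PANC1OR replicate 3 alone, and without it the log2 fold change was -2.68 (adjusted p = 0.0032), and with GC offsets -1.75 (adjusted p = 0.0104). NGFR averaged 0.419 CPM in PANC1OR and 1.25 CPM in PANC1, so that it passed the filter on low counts through the line in which it is high. TNFRSF25, the death receptor DR3, was at 3.48, 3.06 and 8.75 CPM in PANC1OR, against 3.11, 3.55 and 2.69 CPM in PANC1 (0.69 ± 0.43, adjusted p = 0.332). TNFRSF13C, a receptor of the B cell survival factor BAFF, was at 1.23 to 3.30 CPM in PANC1OR and 1.53 to 1.68 CPM in PANC1, and TNFSF13, the APRIL gene, at 0.687 to 2.56 CPM in PANC1OR and 0.5504 to 1.06 CPM in PANC1. These 3 genes overlapped between the lines, with adjusted p of 0.745 for TNFRSF13C and 0.558 for TNFSF13. Of the exon bases of TNFSF13, 55.5% are shared with the read-through gene TNFSF12-TNFSF13.

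**Figure D4:**
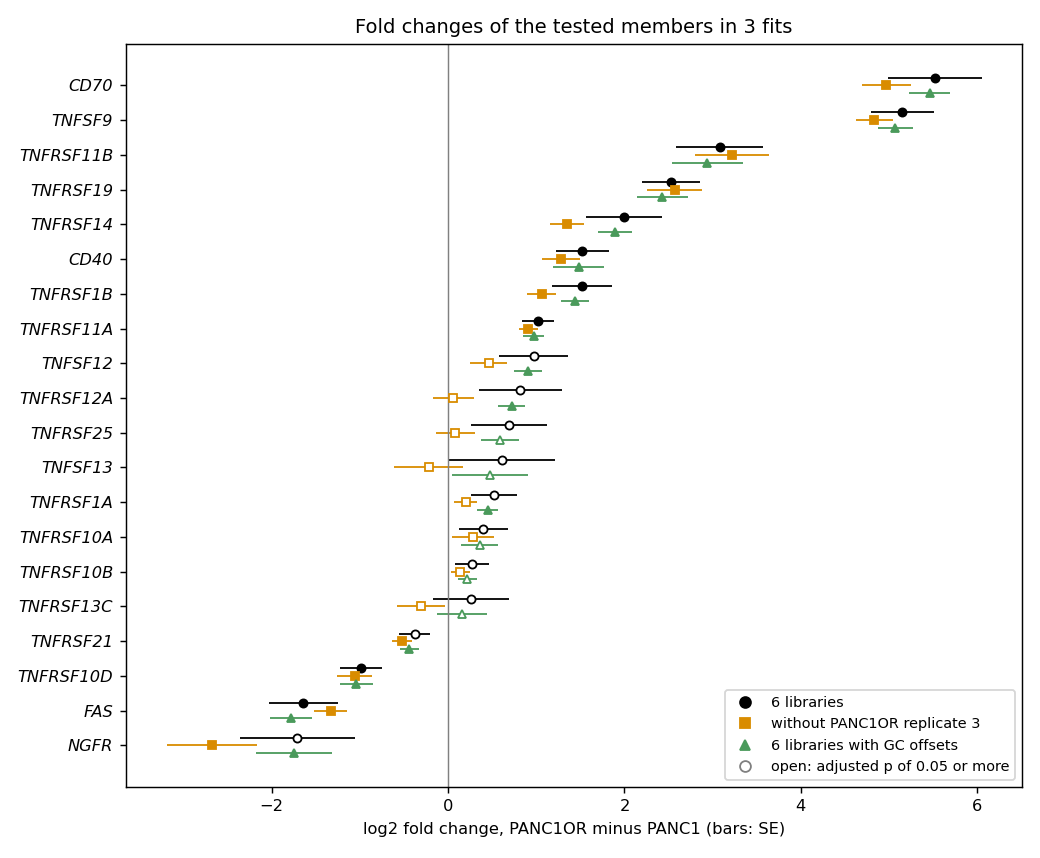
Log2 fold change (PANC1OR minus PANC1) with SE of the 20 tested members in the fit of 6 libraries, the fit without PANC1OR replicate 3 and the fit with GC offsets; filled symbols have an adjusted p under 0.05. CD70 and TNFSF9 are near 5 in all fits, the 10 genes called with 6 libraries stay filled in the other fits, and TNFRSF12A is open at 0.82 and 0.06 and filled at 0.72.

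The other 23 members had too few reads to be tested. Of these, 7 had 0 reads in all libraries, the ligand genes CD40LG, FASLG, TNFSF8 and TNFSF18 and the receptor genes TNFRSF10C, TNFRSF13B and TNFRSF6B. A count of 0 allows up to 3 reads over a line, which is 0.0547 CPM in PANC1OR and 0.0715 CPM in PANC1, for counting error only. TNFRSF6B encodes the soluble decoy DcR3, and 100% of its exon bases are shared with the read-through gene RTEL1-TNFRSF6B, whose row had 114, 58 and 212 reads in PANC1OR and 59, 46 and 88 in PANC1, so the 0 of TNFRSF6B cannot be read as absence. Including these 7, 13 members had under 10 reads over all libraries. Besides CD27, TNFSF10 and TNFRSF9, the highest of the others were TNFSF13B, the BAFF gene, with 19 reads in PANC1OR and 28 in PANC1, TNFRSF17, the plasma cell receptor gene BCMA, with 23 and 12, LTB, a lymphotoxin gene, with 12 and 18, and TNFSF4, the OX40 ligand gene, with 13 and 12. LTBR, the lymphotoxin receptor gene, had 5 reads in each line.

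Genes that carry or answer the signals of the family were taken from 6 lists written from general knowledge, of which 96 of 97 symbols were in the table and 78 genes were tested. Of these 4 were higher and 6 lower in PANC1OR, 12.8% together, beside 17.8% of all tested genes. The median log2 fold change was 0.06, beside 0.04. Without PANC1OR replicate 3 the counts were 19 and 27, and with GC offsets 16 and 26, beside the 44.1% and 38.8% of all genes called in these fits.

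Close to the receptors, 2 of 13 tested adaptor, kinase and caspase genes rose and 0 fell, 15.4% beside 17.8% of all tested genes called. MLKL, the executor of necroptosis, was at 14.8, 14.4 and 16.35 CPM in PANC1OR, against 3.24, 4.49 and 3.61 CPM in PANC1 (2.01 ± 0.23, adjusted p = 0.000709). EDARADD, the adaptor of the ectodysplasin receptor, was at 33.0, 31.4 and 32.95 CPM in PANC1OR, against 14.0, 21.7 and 12.1 CPM in PANC1 (1.03 ± 0.26, adjusted p = 0.0278). Both genes were higher in every PANC1OR library. The call of EDARADD was lost without PANC1 replicate 1 or 3 (adjusted p = 0.134 and 0.14), without PANC1OR replicate 1 or 2 (0.0806 and 0.0624) and with the replicate block (0.0583). CASP8, the initiator caspase of death receptors, was at 68.8 ± 13.2 CPM in PANC1OR and 42.6 ± 0.529 CPM in PANC1 (SD, n = 3 each, adjusted p = 0.0505). Of the 13 genes, 5 were higher and 2 lower without PANC1OR replicate 3, and 4 were higher and 1 lower with GC offsets. These are 53.8% and 38.5%, beside 44.1% and 38.8% of all tested genes called in these fits.

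Of 20 TRAF, ubiquitin ligase and deubiquitinase genes, 1 was called, TNFAIP3, which encodes the NF-kappaB inhibitor A20. It was at 2.88, 3.06 and 3.80 CPM in PANC1OR, against 10.3, 10.03 and 8.44 CPM in PANC1 (-1.57 ± 0.24, adjusted p = 0.00275). TAB2, an adaptor of the kinase TAK1, was the 1 called among 21 kinase and NF-kappaB genes, at 73.3 ± 17.9 CPM in PANC1OR and 135 ± 2.04 CPM in PANC1 (SD, log2 fold change -0.88 ± 0.22, adjusted p = 0.0269). FURIN, a proprotein convertase that processes several ligands, was the 1 called among 8 shedding genes, at 41.3 ± 20.6 CPM in PANC1OR and 91.5 ± 2.01 CPM in PANC1 (SD, log2 fold change -1.15 ± 0.32, adjusted p = 0.044). Both fell, and both calls were lost without PANC1 replicate 1 (adjusted p = 0.1 and 0.126), 2 (0.074 and 0.13) or 3 (0.103 and 0.138) and without PANC1OR replicate 2 (0.0542 and 0.113). FURIN was also not called without PANC1OR replicate 1 (0.123), and TAB2 not with the replicate block (0.0572). These lists had more calls in other fits, as did all tested genes, with 44.1% called without PANC1OR replicate 3 and 38.8% with GC offsets. Without PANC1OR replicate 3, 4 TRAF and ubiquitin genes were higher and 7 lower, 3 kinase and NF-kappaB genes were higher and 9 lower, and 1 shedding gene was higher and 5 lower. With GC offsets the counts were 5 higher and 8 lower, 2 higher and 7 lower, and 1 higher and 5 lower in the same order of lists.

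Among 11 tested genes known to be induced by TNF, 2 rose and 3 fell, 45.5% together beside 17.8% of all tested genes. PTX3 averaged under 1 CPM in PANC1 and CXCL1 and CXCL8 under 1 CPM in PANC1OR, so that these passed the filter through the line in which they are high. Without PANC1OR replicate 3, 5 were higher and 3 lower, and with GC offsets 4 were higher and 4 lower, beside 44.1% and 38.8% of all tested genes called. PTX3, a soluble pattern recognition protein gene, was at 65.1, 66.6 and 64.7 CPM in PANC1OR, against 0.747, 0.940 and 0.184 CPM in PANC1 (6.78 ± 0.45, adjusted p = 6.28e-05). ICAM1, a leukocyte adhesion ligand gene, was at 55.3, 50.7 and 77.95 CPM in PANC1OR, against 15.9, 19.2 and 14.9 CPM in PANC1 (1.88 ± 0.24, adjusted p = 0.00124). The chemokine gene CCL2 was at 4.97, 4.996 and 5.12 CPM in PANC1OR, against 83.9, 132.8 and 81.7 CPM in PANC1 (-4.30 ± 0.27, adjusted p = 5.13e-05). CXCL1, a neutrophil chemokine gene, averaged 0.758 ± 0.224 CPM in PANC1OR and 14.25 ± 1.08 CPM in PANC1 (SD, log2 fold change -4.17 ± 0.29, adjusted p = 7.02e-05). CXCL8, another one, named after its value was seen, averaged 0.167 ± 0.0190 CPM in PANC1OR and 1.64 ± 0.5204 CPM in PANC1 (-3.22 ± 0.44, adjusted p = 0.00166). These genes split, with PTX3 and ICAM1 above and the chemokines below PANC1 in every PANC1OR library.

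The list of family members outside the symbol rule and of partner proteins had 5 tested genes and 0 calls by edgeR's quasi-likelihood test, 0 at an unadjusted p under 0.05 and 0 by DESeq2. Without PANC1OR replicate 3, 1 was higher and 1 lower, with GC offsets 1 was lower, and with PANC1 replicate 2 left out as well as PANC1OR replicate 3, 2 were higher and 1 lower. Of all tested genes, 44.1%, 38.8% and 58.5% were called in these fits, in the same order. The genes of the ectodysplasin ligand and of its receptors, EDA, EDAR and EDA2R, were among those too low to be tested.

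**Figure D5:**
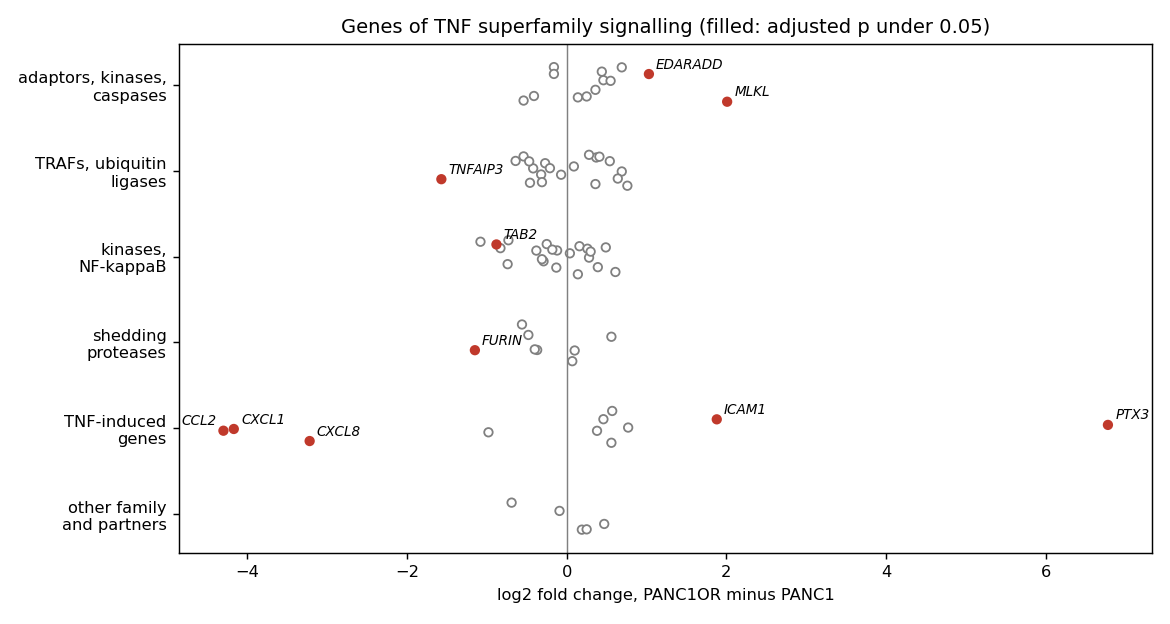
Log2 fold change (PANC1OR minus PANC1) of the 78 tested genes of TNF superfamily signalling, 1 point per gene in rows by list, with vertical scatter for legibility only. The 10 filled and named genes have an adjusted p under 0.05, and PTX3 at 6.78 and CCL2 at -4.30 are the farthest from 0.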

How the data were processed

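Read counts per gene were deposited by the authors without normalization, 1 column per library, beside 5 columns without values. Per the series design text and the submitters' processing notes, FastQC 0.11.5, cutadapt in Trim Galore 0.4.2, STAR 2.5 on GRCh38 and featureCounts (Subread 1.6.2) were used. Annotation release, strand setting and the treatment of shared reads were not found in these sources.

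Genes passing filterByExpr were scaled by TMM and compared with edgeR's quasi-likelihood test (edgeR 4.0.16 in R 4.3.3) on 6 libraries without covariates, adjusted by Benjamini-Hochberg over 18751 genes. The design text names edgeR 3.24.3 and its likelihood ratio test, run here as an alternative. The common biological coefficient of variation was 0.281. Positions, exon lengths and transcript GC content came from GENCODE 44, which held 58207 of 58735 identifiers and all 43 members. GC offsets were splines of 5 degrees of freedom. The quasi-likelihood, likelihood ratio, DESeq2, GC-offset and replicate-block fits were also run on simulated counts with known changes. Those counts held no GC trend and no deviating library, so they cannot show how the fits handle either.

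Library totals limit the precision of members with few reads, and intervals and the floor of 3 reads cover counting error only. The most similar libraries, PANC1OR replicates 1 and 2, still differed beyond sampling noise (chi-square per degree of freedom 3.59).

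Alternatives were size factors and the Wald test of DESeq2 1.42.0, the likelihood ratio test, no filter on low counts, leaving out libraries, GC offsets and a replicate block. The members and lists were chosen with earlier results of these data known. By rule, values by library are given for tested members called with 6 libraries, without 1 library or with GC offsets, and for those with a mean of at least 5 CPM. Up to 4 called genes per pathway list with the smallest p-values and at least 1 CPM in either line are named.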

Additional observations from a re-analysis of the deposited data

How the results depend on the processing

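The count of all tested genes called, 3345 with 6 libraries, was 1821 to 8663 with 1 library left out, lowest without PANC1 replicate 3 (1920 without PANC1 replicate 1) and highest without PANC1OR replicate 3. It was 7273 with GC offsets (3415 higher and 3858 lower, against 1939 and 1406), 6321 when these offsets joined the replicate block, and 11422 after dropping both PANC1OR replicate 3 and PANC1 replicate 2. In the same order of settings, higher members numbered 5 to 9 (5 without PANC1 replicate 1 or 3), 11, 11 and 13, and lower members 0 to 4, 4, 4 and 4. The 0 lower members without PANC1 replicate 2 or 3, by edgeR's test, stood beside 2 at an unadjusted p under 0.05, and DESeq2 with 6 libraries called 2. There was 1 lower member without PANC1 replicate 1, PANC1OR replicate 1 or PANC1OR replicate 2. Higher pathway genes numbered 3 to 19, 16, 13 and 27, and lower ones 4 to 27, 26, 22 and 34. DESeq2's test called 7 higher pathway genes. Members past the design text cutoffs numbered 2 to 5 with 1 library left out (2 without PANC1 replicate 3).

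With the replicate block alone, 8 members were higher and 1 lower, TNFRSF10D being lost, and 2324 genes were called in all. The sample titles give numbers and state no pairing. Same-numbered cultures had correlations of deviations of 0.46, -0.45 and -0.22, and PANC1OR replicates 2 and 3 correlated best with PANC1 replicates 1 and 2. Deviations within a line are not independent, and PANC1OR replicate 3 and PANC1 replicate 2 deviated the same way by GC. These correlations therefore cannot decide whether same-numbered cultures were handled together.

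Over the tested members, the named pathway genes and the called neighbours, 430 fits of single genes kept the direction and the call, 36 lost the call and 20 gained it. The sign turned in 4, none of them called: with 1 library left out TNFSF13 ranged between -0.22 and 0.94 and TNFRSF13C between -0.31 and 0.52, both negative without PANC1OR replicate 3, and they were at -0.21 and -0.33 with PANC1 replicate 2 left out as well. The cause was not tested. An alternative added after the data were seen, the canonical transcript in place of merged exons, gave 11 rather than 9 tested members a mean of at least 10 TPM in PANC1OR and moved FAS, whose merged exons span 29313 bases, to 1.29 from 0.235 TPM there. It also put TNFRSF21 below TNFRSF12A and TNFRSF1A in PANC1.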

Other observations

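Some genes of cell death signalling lay below the filter. CASP10, a second initiator caspase gene, had 11, 6 and 6 reads in PANC1OR and 0 in each PANC1 library. RIPK3, the kinase upstream of MLKL in necroptosis, had 0 reads in every library of both lines, while MLKL was called higher in PANC1OR.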
